A study of Mus musculus with 4 samples.

Results

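Wide isolated Sp5 peaks are the intervals of a ChIP-seq peak list that measured over 300 bp and had no other peak midpoint within 1000 bp on the same chromosome. There were 1195 of them among 9428 peaks, or 12.7% (95% Wilson interval 12.0 to 13.4%). They were selected on their listed width and spacing, so the number and the widths of these peaks are a description and were not tested. They were set beside 6884 peaks that met the same distance rule and measured up to 300 bp but more than the minimum width of the list, called the narrower isolated peaks below. A further 630 isolated peaks had exactly that minimum width, which many peaks of the list share, and were kept apart.

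Chromatin came from A2Lox.cre mouse embryonic stem cells, a line in which a transgene can be switched on with doxycycline. The cells were grown as embryoid bodies, doxycycline was added on day 2 for 24 h to induce Flag-tagged Sp5, and the cells were fixed on day 3. There were 2 Flag-Sp5 ChIP libraries, made with 4 µg of the M2 antibody against Flag, and 2 input libraries without antibody. The labels give the doxycycline treatment for all 4. The titles of the inputs read Flag ESC and do not name Sp5, so the titles alone do not say that the inputs carried the Sp5 transgene. No Flag ChIP from uninduced cells was analysed here, the protein mapped is the induced tagged form, and whether the paired libraries were separate cultures is not in the labels. The 4 libraries share 1 peak list with chromosome, start and end alone. It holds no score, read count or value for a single library, so no value below has a replicate error, the depth is unknown, and no test over samples was possible. The intervals given cover counting error only. They treat peaks as independent, although neighbouring peaks share their surroundings.

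Sp5 belongs to the Sp/KLF transcription factors, which carry zinc fingers and bind GC-rich sequence elements, many of them in promoters and enhancers. The Sp5 gene is a target of Wnt/β-catenin signalling and is active in the primitive streak and tail bud of the mouse embryo. In ChIP-seq, sheared chromatin bound by the protein is sequenced and a peak caller marks stretches with more reads than the background. The width of a called peak is set by the reads and by the caller's threshold, and it is not the length of DNA that the protein touches.

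Peaks over 300 bp exceeded the upper end of the sheared fragment size of about 100 to 300 bp that the labels give. The list held 1300 of them, and 105 (8.08%, interval 6.72 to 9.68%) were set aside because another midpoint lay within 1000 bp. The same rule set aside 567 of 7451 peaks of up to 300 bp and above the minimum width (7.61%, interval 7.03 to 8.23%) and 47 of 677 peaks at the minimum width (6.94%, interval 5.26 to 9.11%). A close neighbour was thus about equally frequent in the 3 width classes, and the intervals overlapped. The 1195 wide isolated peaks covered 0.465 Mb of the 2.08 Mb covered by all peaks, or 22.4% of it.

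Most wide isolated peaks were only moderately wide. Their median width was 356 bp, the central 50% measured 324 to 424 bp, and the mean was 389 ± 97.0 bp (SD, n = 1195 peaks). The narrower isolated peaks had a median of 189 bp. Widths of 301 to 350 bp were found for 548 wide isolated peaks (45.9%), 351 to 400 bp for 261 (21.8%) and 401 to 500 bp for 265 (22.2%). A further 105 measured 501 to 700 bp, 13 measured 701 to 1000 bp, and 3 were wider than 1000 bp. No gap in the widths marked the 300 bp boundary. Just inside it stood 10 isolated peaks of 301 bp and 19 of 302 bp, and just outside it 17 of 300 bp and 22 of 299 bp. Isolated peaks of 301 to 310 bp (151 peaks) had 7.41 ± 6.02 other peaks within 500 kb on either side (SD over peaks), and those of 291 to 300 bp (156 peaks) had 6.67 ± 5.49. The medians went the other way, at 5 and 5.5.

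At the boundary of the distance rule, the nearest members were a pair on chromosome 2, at 80287405 to 80287727 (323 bp) and 80288328 to 80288809 (482 bp), with midpoints 1.00 kb apart. A peak of 403 bp on chromosome 2 from 153172167 to 153172569, whose nearest midpoint lay 998 bp away, fell just outside.

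The widest of the wide isolated peaks on each chromosome gives a view of the set, and is called the widest peak of that chromosome here. Peaks over 300 bp with a close neighbour were not considered for this. The overall widest, 1407 bp on chromosome 9 from 51842935 to 51844341, had 2 other peaks within 500 kb and its nearest wide isolated peak stood 2572 kb away. On chromosome 17 the widest (36002645 to 36003735, 1091 bp) had 11 other peaks within 500 kb, and its nearest neighbour of any width, 4.81 kb away, was itself a wide isolated peak. On chromosome 18 the peak from 36047350 to 36048245 (896 bp) had 17 other peaks within 500 kb, 5 of them wide isolated peaks. These 3 peaks show that great width occurred both in sparse and in crowded surroundings.

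Crowded examples came from several chromosomes. The widest peaks of chromosome 10 (80040129 to 80040809, 681 bp), chromosome 3 (89182450 to 89182954, 505 bp), chromosome 4 (140847308 to 140848062, 755 bp) and chromosome 15 (99090070 to 99090758, 689 bp) had 23, 22, 19 and 14 other peaks within 500 kb. That of chromosome 19 (6401080 to 6401801, 722 bp) had 10. Although crowded in by peaks, the first 4 each stood over 270 kb from the next wide isolated peak, at 430 kb on chromosome 10, 288 kb on chromosome 3, 274 kb on chromosome 4 and 367 kb on chromosome 15.

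The widest peaks of 8 other chromosomes had at most 4 other peaks within 500 kb. The widest peak of chromosome 1 (101238056 to 101238654, 599 bp) had no other peak within 500 kb, and its nearest wide isolated peak was 7537 kb away. On chromosome 5 the widest (25415158 to 25415942, 785 bp) had 1 other peak within 500 kb, although that chromosome also held the most crowded wide isolated peaks. Those of chromosome 7 (91754310 to 91755123, 814 bp) and chromosome 11 (109771808 to 109772381, 574 bp) had 3 each. Chromosome 2 (38206077 to 38206819, 743 bp), chromosome 8 (113776868 to 113777553, 686 bp) and chromosome 14 (32835551 to 32836225, 675 bp) had 4 each, as had X (17463002 to 17463543, 542 bp).

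The remaining 4 had 5 to 8 other peaks. They were found on chromosome 12 (113350924 to 113351565, 642 bp, 5 other peaks), chromosome 6 (113256543 to 113257144, 602 bp, 7 other peaks), chromosome 13 (53329982 to 53330509, 528 bp, 7 other peaks) and chromosome 16 (20716132 to 20716682, 551 bp, 8 other peaks). Over these 20 peaks the number of others within 500 kb had a median of 6, equal to that of all wide isolated peaks, and 7 of the 20 had at least 9. The gene context and sequence of these intervals were not analysed here, because no genome or annotation of the mm9 build was used.

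Wide isolated peaks sat in surroundings with more peaks than the narrower isolated peaks did. Within 500 kb on either side, a stretch of 1 Mb in which the peak itself was not counted, they had 7.58 ± 5.79 other peaks (SD over 1195 peaks, median 6, central 50% from 3 to 11). The narrower isolated peaks had 6.38 ± 5.33 (SD over 6884 peaks, median 5, central 50% from 3 to 9), a ratio of means of 1.19. The distributions overlapped widely, with maxima of 31 and 32, and the difference of means was small against the spread between peaks. Isolated peaks at the minimum width resembled the narrower class, with 6.56 ± 5.85 (SD over 630 peaks).

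The difference was seen at both the crowded and the sparse end. Surroundings were called dense where at least 9 other peaks lay within 500 kb, the upper quartile of the list, which 28.2% of all 9428 peaks reached because of ties. Of the wide isolated peaks 418 were in dense surroundings (35.0%, interval 32.3 to 37.7%), against 1766 of the narrower isolated peaks (25.7%, interval 24.6 to 26.7%). The difference was 9.33 percentage points (interval 6.48 to 12.3). At the other end, at most 3 other peaks within 500 kb were found for 25.9% of wide isolated peaks (309 peaks, interval 23.5 to 28.4%), for 35.0% of the narrower ones (2407 peaks, interval 33.8 to 36.1%) and for 32.8% of the list. No other peak at all within 500 kb was found for 41 wide isolated peaks (3.43%, interval 2.54 to 4.62%), 360 narrower ones (5.23%, interval 4.73 to 5.78%) and 4.61% of the list.

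**Figure D1:**
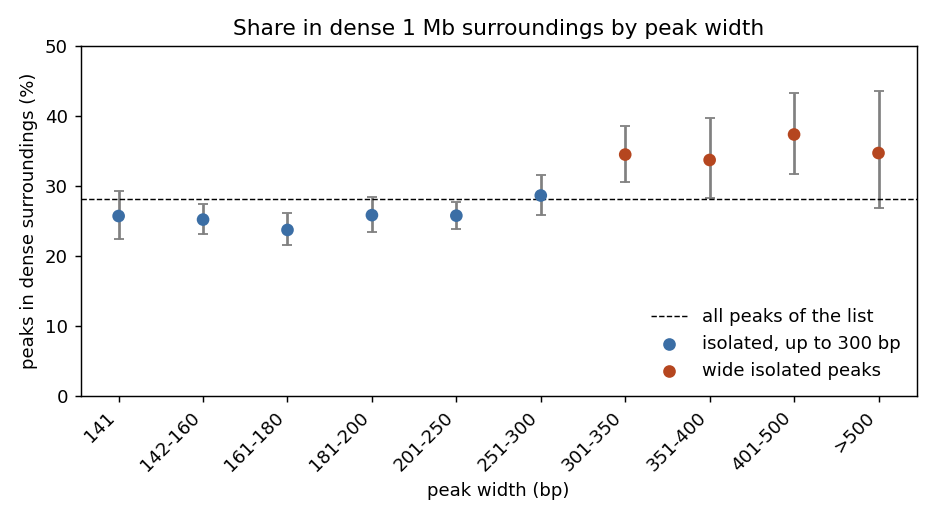
Share of isolated peaks in dense surroundings (at least 9 other peaks within 500 kb, y axis, %) by peak width (x axis, bp); bars are 95% Wilson intervals and the dashed line is the 28.2% of all peaks. Classes up to 250 bp lie between 23.7 and 25.8%, and the 4 classes above 300 bp between 33.7 and 37.4%.

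The rise with width was not gradual over the whole range. Isolated peaks above the minimum width and up to 160 bp, and of 161 to 180, 181 to 200 and 201 to 250 bp were in dense surroundings in 25.2, 23.7, 25.8 and 25.8% of cases. The share was 28.6% (interval 25.9 to 31.6%) at 251 to 300 bp, 34.5% (interval 30.6 to 38.6%) at 301 to 350 bp, 33.7% at 351 to 400 bp, 37.4% (interval 31.8 to 43.3%) at 401 to 500 bp and 34.7% (121 peaks, interval 26.8 to 43.5%) above 500 bp. The intervals of the 4 classes above 300 bp overlapped, and no further rise with width could be told from counting error. Across the 1195 wide isolated peaks, Spearman's rho between width and the number of surrounding peaks was 0.02. Across all 8079 isolated peaks above the minimum width it was 0.08. These are descriptions across peaks that share surroundings.

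Read in the other direction, the share of wide peaks among isolated peaks above the minimum width went up with local peak density. It was 10.2% (41 of 401 peaks, interval 7.63 to 13.6%) where no other peak lay within 500 kb, and 12.2% and 12.1% with 1 to 2 and 3 to 4 others. With 5 to 6 others it was 14.9% and with 7 to 10 it was 16.2%. The share reached 19.9% (183 of 918 peaks, interval 17.5 to 22.6%) with 11 to 15 others, and stayed at 19.4% with 16 to 20 and 20.2% (48 of 238 peaks, interval 15.6 to 25.7%) with more. The median width of the wide isolated peaks in these classes stayed between 343 and 360 bp, so crowded surroundings held relatively more of them but not visibly wider ones.

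**Figure D2:**
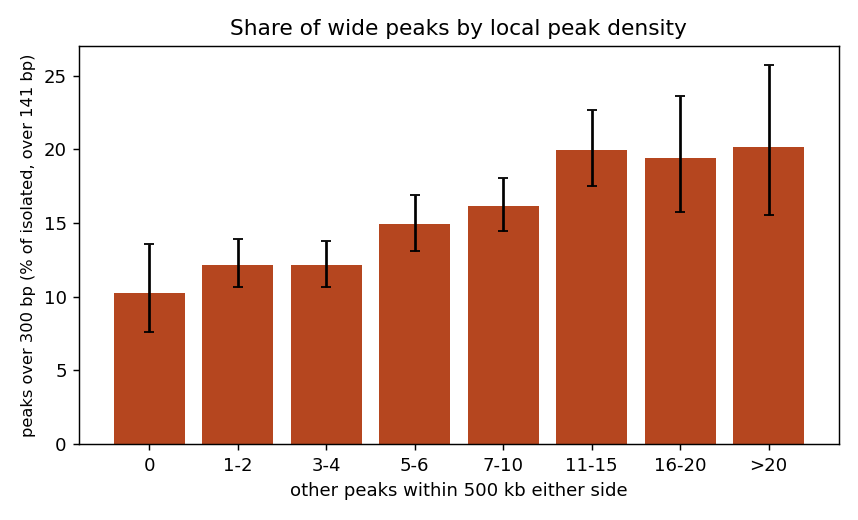
Share of peaks over 300 bp among isolated peaks above the minimum width (y axis, %) by the number of other peaks within 500 kb on either side (x axis); bars are 95% Wilson intervals. The share goes from 10.2% with no other peak to about 20% with 11 or more.

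The autosomes all showed the same direction. On 19 of 19 autosomes the mean number of surrounding peaks was higher for wide isolated peaks, and on 19 of 19 the share in dense surroundings was higher. The ratio of means ran from 1.04 on chromosome 2 (6.30 ± 3.98 against 6.06 ± 4.14, SD over peaks) to 1.44 on chromosome 3 (6.67 ± 7.14 over 33 peaks against 4.61 ± 5.09). On chromosome 5 the means were 12.1 ± 8.50 and 9.76 ± 7.93, and on chromosome 11 they were 9.84 ± 5.73 and 8.32 ± 5.89. The median was higher on 15 autosomes, equal on 3 and lower on chromosome 14, at 5 against 6. X, with 17 wide isolated peaks, had means of 2.88 ± 2.55 and 2.03 ± 2.12. With the narrower isolated peaks weighted to the chromosomes of the wide ones, their mean was 6.52 and their dense share 26.9%, beside 7.58 and 35.0% for the wide isolated peaks.

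As a ratio, the surplus of neighbours was greatest close by and faded with distance. The difference of mean numbers did not fade, at 0.0456 peaks from 1 to 5 kb and 1.39 from 2000 to 5000 kb, but the distance ranges are of unequal length. Between 1 and 5 kb from the midpoint, 161 of 1195 wide isolated peaks had another peak (13.5%, interval 11.7 to 15.5%), against 658 of 6884 narrower ones (9.56%, interval 8.89 to 10.3%), and the mean numbers stood in a ratio of 1.41. The ratio was 1.37 from 5 to 10 kb, 1.31 from 10 to 50 kb, 1.15 from 50 to 100 kb and 1.22 from 100 to 250 kb. It was 1.14 from 250 to 500 kb, 1.10 from 500 to 1000 kb, 1.08 from 1000 to 2000 kb and 1.05 from 2000 to 5000 kb. The nearest peak of any width accordingly lay at a median of 40.0 kb from wide isolated peaks (central 50% from 11.5 to 129 kb) and 58.7 kb from the narrower ones (17.7 to 154 kb).

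**Figure D3:**
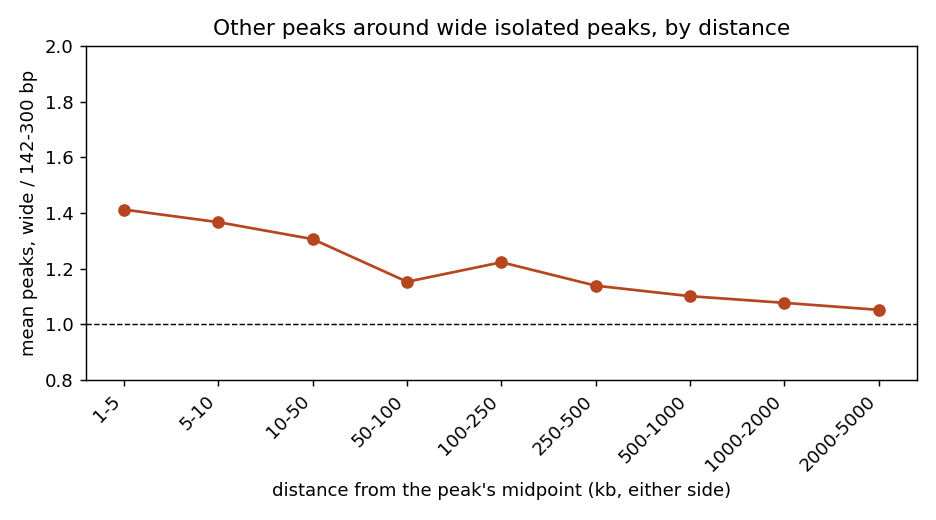
Ratio of the mean number of other peaks around wide isolated peaks to that around the narrower isolated peaks (y axis, starting at 0.8), by distance from the midpoint on either side (x axis, kb). The ratio goes from 1.41 at 1 to 5 kb to 1.05 at 2000 to 5000 kb, with a dip to 1.15 at 50 to 100 kb, and the dashed line marks equal means.

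The most crowded wide isolated peaks were on distal chromosome 5 and on chromosome 10. A peak of 513 bp on chromosome 5 from 137763187 to 137763699 had 31 other peaks within 500 kb, of which 4 were wide isolated peaks. It was followed on the same chromosome by 135259537 to 135259914 (378 bp, 30 others, 8 of them wide isolated peaks). Next came 135461394 to 135461734 (341 bp) and 135227214 to 135227530 (317 bp), with 29 others each. The chromosome 10 peak, from 80700601 to 80700910 (310 bp), also had 29 others, 3 of them wide isolated peaks. Of the 41 wide isolated peaks with no other peak within 500 kb, the most remote was on chromosome 1 from 69732314 to 69732849 (536 bp), 2533 kb from any other peak. The next were on X from 111006101 to 111006499 (399 bp, 1897 kb) and on chromosome 5 from 84495587 to 84495907 (321 bp, 1832 kb). Widths over 500 bp were thus found at both ends of the density range.

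The share of isolated peaks that were wide varied between autosomes. Over all autosomes 1178 of the isolated peaks above the minimum width were wide, a share of 14.8% (interval 14.1 to 15.6%). Chromosome 17 had the highest share, 18.8% (70 of 372 peaks, interval 15.2 to 23.1%), and chromosome 3 the lowest, 9.12% (33 of 362 peaks, interval 6.56 to 12.5%), a ratio of 2.06 (interval 1.40 to 3.04). These 2 were picked as the extremes of 19 autosomes, so their ratio is above 1 by construction. Its interval does not allow for that choice and cannot show that autosomes differ. Chromosome 3 was lowest under all 10 alternatives tried for this share, but chromosome 17 was highest under 7. Chromosome 12 was highest with minimum widths of 250 and 350 bp, and chromosome 18 with no other midpoint within 5000 bp. The ratio was 1.55, 3.50, 4.43 and 11.6 with minimum widths of 250, 350, 400 and 500 bp. The last of these set 3.51% on chromosome 17 against 0.303% on chromosome 3 and had an interval of 1.51 to 89.3. With minimum widths above 300 bp, peaks between 300 bp and the minimum were left out of the shares. These ratios therefore do not show a contrast that grows with width. Of the 19 autosomes, chromosomes 17 and 3 were the 2 whose interval did not include the share over all autosomes. In descending order after chromosome 17 came chromosome 4 with 17.4% (103 wide isolated peaks, the largest number), chromosome 12 with 16.9%, chromosome 18 with 16.8%, chromosome 7 with 16.3% and chromosome 15 with 16.0%. Chromosomes 2, 11, 5, 6, 14, 10 and 1 followed with 15.9, 15.4, 15.3, 14.8, 14.4, 14.0 and 13.9%. At the low end, chromosome 8 had 13.5%, chromosome 9 had 13.2%, chromosome 13 had 12.7%, chromosome 19 had 12.0% and chromosome 16 had 11.2% (29 of 259 peaks, interval 7.91 to 15.6%). Neighbours in this order did not differ beyond counting error. X had 12.4% (17 of 137 peaks, interval 7.89 to 19.0%), within the range of the autosomes.

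**Figure D4:**
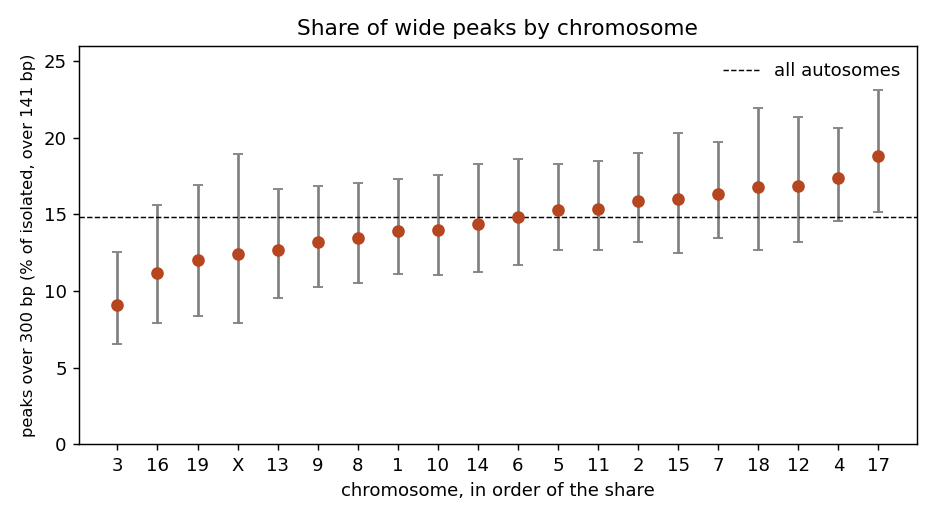
Share of peaks over 300 bp among isolated peaks above the minimum width (y axis, %) for each chromosome in ascending order (x axis); bars are 95% Wilson intervals and the dashed line is the 14.8% over all autosomes. Chromosomes 3 and 17 are the ones whose interval does not reach the line.

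Per length of chromosome, measured from the first to the last peak, wide isolated peaks were densest on chromosomes 17 and 11, at 0.768 per Mb each (exact Poisson intervals 0.599 to 0.970 and 0.618 to 0.943). Chromosome 4 had 0.677 and chromosome 5 had 0.651 per Mb. Chromosome 3 had 0.211 (interval 0.146 to 0.297), the lowest autosome, and X had 0.106 (interval 0.0616 to 0.169). Chromosome 11, the autosome with most peaks of any width per Mb (5.76), had a share of wide peaks near that of all autosomes, whereas chromosome 17 had 4.76 peaks per Mb and the highest share. Chromosome 12, with 3.03 peaks per Mb, had 16.9%. Over the 19 autosomes Spearman's rho between peaks per Mb and the share of wide peaks was 0.42 (Pearson's r 0.42), a description of 19 points from 1 list. The median width of wide isolated peaks ran from 337 bp on chromosome 3 to 386.5 bp on chromosome 9.

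Along the chromosomes the share of wide peaks was nearly even. Each chromosome was divided into 5 equal parts between its first and last peak, and the share in these was 14.7, 13.7, 14.1, 15.0 and 15.9%. The last of the 5 parts held most wide isolated peaks, 342, and also most isolated peaks above the minimum width, 2153. The 5 intervals overlapped.

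Wide isolated peaks lay nearer to each other than the narrower isolated peaks lay to them. The distance from a wide isolated peak to the nearest other one had a median of 359 kb (central 50% from 102 to 1138 kb), and the distance from a narrower isolated peak to the nearest wide isolated peak had a median of 509 kb (167 to 1334 kb). The target set is the same in both, apart from the peak itself. Another wide isolated peak within 100 kb was found for 289 of 1195 (24.2%, interval 21.8 to 26.7%), against 1190 of 6884 narrower isolated peaks (17.3%, interval 16.4 to 18.2%) and 18.8% of the list. The difference was 6.90 percentage points (interval 4.38 to 9.55), and 3.93 (interval 1.58 to 6.50) among peaks with no other midpoint within 5000 bp. Wide isolated peaks near each other are counted from both sides, and only 163 distances between consecutive ones were at most 100 kb. The intervals of their shares and of these differences are therefore too narrow. Within 10 kb the shares were 5.61% (67 peaks, interval 4.44 to 7.06%) and 2.85% (196 peaks, interval 2.48 to 3.27%). Within 1000 kb they were 71.2% and 67.5%.

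This nearness was less uniform over the chromosomes than the local density. The median distance to the nearest wide isolated peak was shorter for wide isolated peaks on 16 of 19 autosomes, and the share within 100 kb was higher on 13. Chromosome 17 showed it most clearly, with a median of 130 kb against 322 kb and shares within 100 kb of 42.9 and 21.9%. The medians went the other way on chromosome 6 (1110 kb against 548 kb), chromosome 1 (803 kb against 678 kb) and chromosome 8 (547 kb against 472 kb). On chromosomes 1 and 8 the share within 100 kb was nonetheless higher for wide isolated peaks, at 16.7 against 14.0% and 33.3 against 16.9%. On chromosome 6 it was 6.67 against 12.8%.

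The number of peaks in the surroundings moved with this nearness. A wide isolated peak within 100 kb is itself one of the other peaks within 500 kb. The share with such a neighbour is thus 0 by definition where there are no others, and a rise with their number is partly built in. In both classes the share with a wide isolated peak within 100 kb went up with the number of other peaks within 500 kb. Among wide isolated peaks it was 7.07% (13 of 184) with 1 to 2 others, 17.2% (35 of 203) with 5 to 6, 40.4% (74 of 183) with 11 to 15 and 68.8% (33 of 48) with more than 20. Among the narrower isolated peaks it was 3.77, 15.0, 42.0 and 52.6% in the same classes. The intervals overlapped in each of these 4 classes. They were apart with 7 to 10 others, at 30.0% (interval 24.8 to 35.8%) against 21.9% (interval 19.8 to 24.2%). Near wide isolated peaks are counted from both sides here too, so the first interval is too narrow. With the narrower isolated peaks weighted to the numbers of surrounding peaks of the wide ones, their share was 20.9%, between the unweighted 17.3% and the 24.2% of wide isolated peaks.

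**Figure D5:**
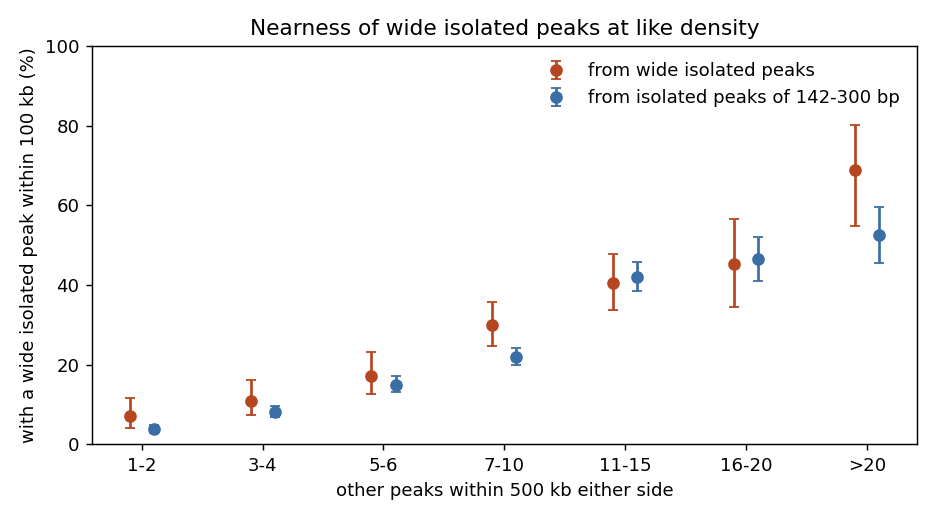
Share of peaks with a wide isolated peak within 100 kb (y axis, %) by the number of other peaks within 500 kb (x axis), for wide isolated peaks and the narrower isolated peaks; bars are 95% Wilson intervals. Both shares go up with density, which is partly built in because the neighbour within 100 kb is counted in the density. With 11 to 15 others they are 40.4 and 42.0%. Peaks with no others are not drawn.

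The make-up of the surroundings by width was much alike. Of all peaks within 500 kb of wide isolated peaks 14.6% were themselves wide isolated peaks, and of those within 500 kb of the narrower ones 14.3% were. The intervals were apart at 2 of 5 distance ranges, the shortest and that from 50 to 100 kb. Of the peaks between 1 and 5 kb from a wide isolated peak, 50 of 187 were over 300 bp (26.7%, interval 20.9 to 33.5%), and of those at the same distance from a narrower isolated peak 119 of 763 were (15.6%, interval 13.2 to 18.3%). A pair of wide isolated peaks enters the first count from both sides, so its interval is too narrow. From 5 to 10 kb the shares were 17.4 and 16.8%, from 10 to 50 kb 16.8 and 16.9%, and from 100 to 500 kb 15.0 and 15.7%. From 50 to 100 kb they were 18.7% (interval 16.3 to 21.3%) and 14.7% (interval 13.7 to 15.8%).

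For consecutive peaks the 2 classes were closer. The next peak along the chromosome was over 300 bp for 180 of 1193 wide isolated peaks that had one (15.1%, interval 13.2 to 17.2%), for 917 of 6870 narrower isolated peaks (13.3%, interval 12.6 to 14.2%) and for 13.8% of the list. The difference of 1.74 percentage points had an interval of -0.35 to 4.02 and was not distinguishable from counting error. The previous peak was over 300 bp for 184 of 1190 wide isolated peaks (15.5%, interval 13.5 to 17.6%). For the narrower isolated peaks it was so for 919 of 6870 (13.4%, interval 12.6 to 14.2%), and these 2 intervals overlapped. Of the 1300 peaks over 300 bp, isolated or not, 935 (71.9%) had a narrower peak or the chromosome's end on both sides. There were 139 runs of 2, 25 runs of 3 and 3 runs of 4. No baseline is given for these counts, so they do not show whether wide peaks followed each other more often than their share of the list would give. The runs of 4 lay on chromosome 7 from 20284356 to 20333549 (49.2 kb), on chromosome 5 from 118776659 to 118886953 (110 kb) and on chromosome 17 from 14830111 to 15162229 (332 kb).

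Very close pairs of wide isolated peaks were few. Of 1175 distances between consecutive wide isolated peaks on a chromosome, 10 were at most 2 kb, 21 at most 5 kb and 35 at most 10 kb, while the median was 919 kb and the longest 32.0 Mb. After the chromosome 2 pair described at the boundary of the distance rule, the closest pairs per chromosome came from 4 others. On chromosome 5 they were 118885382 to 118885828 (447 bp) and 118886521 to 118886953 (433 bp), 1.13 kb apart. On chromosome 12 they were 119539190 to 119539745 (556 bp) and 119540539 to 119540853 (315 bp), 1.23 kb apart. Chromosome 4 had 11313694 to 11314206 (513 bp) and 11315204 to 11315511 (308 bp), 1.41 kb apart. Chromosome 8 had 35023152 to 35023617 (466 bp) and 35024669 to 35025053 (385 bp), 1.48 kb apart. The chromosome 2 pair had no other peak within 500 kb, since each counted 1, the other of the pair. The chromosome 5 pair had 12 each, the chromosome 8 pair 8 each, the chromosome 4 pair 5 each and the chromosome 12 pair 4 each.

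Most 1 Mb stretches held no wide isolated peak. Of 2574 bins of 1 Mb counted from the first peak of each chromosome, 1792 (69.6%) held none, including 396 without any peak, and 517 (20.1%) held 1. Another 98 bins, 3.81% of all, held 3 or more, and these carried 344 of the 1195 wide isolated peaks (28.8%). The mean was 0.464 per bin and the variance 1.60 times the mean. No such values are given for the narrower isolated peaks or the whole list. The bins therefore do not show whether wide isolated peaks were more clustered than other peaks.

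The stretches with most of them were on chromosomes 7 and 5. Within 1 Mb, 9 wide isolated peaks fell on chromosome 7 between 19426125 and 20409895, among 31 peaks in all, and 9 on chromosome 5 between 134850913 and 135549586, among 29. They made up 29.0 and 31.0% of the peaks there, beside 12.7% of the list. The stretches were chosen for holding the most wide isolated peaks, so a high share follows from the choice. Their widths were 319 to 454 bp (median 359 bp) on chromosome 7 and 302 to 558 bp (median 361 bp) on chromosome 5. After these, 9 stretches held 6 each. Of these the one with most peaks lay on chromosome 5 between 137229044 and 138228085, with 33 peaks and a share of 18.2%. Another of the 9, chosen for mention after its values were seen, lay on chromosome 18 between 35830848 and 36090438, with 6 wide isolated peaks among 17 (35.3%), one of them the 896 bp peak named above. The stretches on chromosomes 5 and 18 with 6 wide isolated peaks each thus held 33 and 17 peaks in all. By its coordinates the chromosome 18 stretch was much shorter than the chromosome 5 stretch. These counts therefore do not show that other peaks lay more densely among the wide isolated peaks on chromosome 5.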

How the data were processed

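The authors deposited 1 peak list for 4 libraries, with chromosome, 0-based start and end in bp. The submitters' processing notes name the mm9 build and Bowtie, Picard, MACS2 and HOMER. Versions, the calling threshold and the pooling of libraries were not given in the sources used here. A change of threshold would change both widths and the number of neighbours. Unshifted, 2.80% of the peaks off chromosome 18 lay within 500 bp of the centre of a GRCm38.p6 promoter window, against 1.37 to 2.19% after 6 shifts of the list. No conclusion on the build of the list or on promoters was drawn from this check. Because the notes name mm9, GRCm38.p6 coordinates were used for nothing else. The planned sequence and gene context were not run, and no sequence is printed.

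Coordinates are printed 1-based. Distances are between midpoints. Wilson intervals for shares, Newcombe intervals for differences of shares, log intervals for a ratio of shares and exact Poisson intervals for counts are at 95% (Python 3.11.15, scipy 1.17.1). The functions were tested on simulated lists. Peaks named are, by rule, the widest per chromosome, the most and least surrounded, the closest pairs on 5 chromosomes, those at the boundaries and the 3 stretches of 1 Mb with most members. The runs of 4 peaks, the distance ranges, the weighted values and the bins were added after values were seen. Members, rules and lists were chosen with earlier results of these data known.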

Additional observations from a re-analysis of the deposited data

How the results depend on the processing

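The number of wide isolated peaks was 2148, 647, 386 and 121 with minimum widths of 250, 350, 400 and 500 bp, by construction, and 1467 when gaps under 500 bp between peaks were closed. The difference in dense surroundings was above 0 under all 35 alternatives, from 6.997 to 10.9 percentage points, and the difference in nearness within 100 kb under all 30, between 3.93 (no other midpoint within 5000 bp) and 8.28. Within 50 and 500 kb that difference was 4.57 and 6.74. With each chromosome left out in turn these were 8.59 (without chromosome 17) to 9.71 and 5.95 (without chromosome 17) to 7.58. The ratio of the highest to the lowest autosome share was 1.55, 3.50, 4.43 and 11.6 with minimum widths of 250, 350, 400 and 500 bp. There were fewer peaks at each step, and the highest autosome was 12, 12, 17 and 17. At 500 bp the interval of the ratio was 1.51 to 89.3. With no other midpoint within 5000 bp the ratio was 1.99 and the highest autosome 18. The interval of the difference for the next peak included 0 under all 29 alternatives. No paired analysis was possible because single libraries have no values here, so no replicate could be left out either. The sequence and promoter alternatives were not run, for want of an mm9 genome here. Since depth and calling threshold are unknown, a missing neighbour is not a measured absence.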
